A study of Mus musculus with 18 samples.

Results

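Loss of the second copy of Macrod2 was compared with loss of the first in tumours labelled large intestinal, from mice that all carried the ApcMin allele on 1 copy of Apc. The comparison used 11 of the 18 tumours of the series, chosen by the labels alone: 6 tumours of genotype ApcMin/+/Macrod2-/- (called hom 1 to hom 6) and 5 of genotype ApcMin/+/Macrod2-/+ (called het 1, het 2, het 3, het 5 and het 6). A further heterozygous tumour is labelled small intestinal and was left out. Another 6 tumours, of genotype ApcMin/+/Macrod2+/+ (wt), were not a side of the comparison. They entered the gene filter, the scaling, the shared spread and the mean against which list and chromosome levels were set. They also give a level to look at. All mice were male C57BL/6 animals from colonies at the WEHI animal facility with no age given. Mice are numbered within a genotype in the sample titles, from which each tumour was taken to be 1 animal, and p-values measure only the spread between these tumours. The sources used here do not say which part of Macrod2 is deleted, whether littermates were used, or where along the bowel each tumour grew.

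Macrod2 encodes a macrodomain enzyme that removes single ADP-ribose units from proteins, so that it reverses the mark that mono-ADP-ribosylating PARP enzymes write. The enzyme moves to DNA breaks, where PARP enzymes are active, and its human gene lies in a large region that is often focally deleted in colorectal cancer. The ApcMin allele truncates Apc, the scaffold that keeps beta-catenin low, and mice that carry it grow many intestinal adenomas once the remaining normal copy is lost.

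Gene counts per tumour summed to 14849352 to 20857918 reads in hom tumours and to 17250850 to 18887269 in het tumours, with at least 1 read for 16868 to 17113 genes in hom and 16578 to 17154 genes in het tumours. The epithelial adhesion gene Epcam was high in every tumour, at 2455 to 3186 CPM (reads scaled to the size of the library) in hom and 2511 to 3317 CPM in het tumours, as was the intestinal transcription factor Cdx2, at 109 to 126 CPM in hom and 116 to 155 CPM in het tumours. Genes of the ileum were present throughout: Fabp6, the ileal bile acid binding protein, stood at 352 to 1165 CPM in hom and 86.8 to 1664 CPM in het tumours, and Slc10a2, the ileal bile acid transporter, at 9.0 to 105 CPM in hom and 6.28 to 119 CPM in het tumours. The distal colon genes Hoxb13 and Hoxd13 were at or near 0 (at most 0.0506 and 0.376 CPM in hom, and 0.222 and 0.0556 CPM in het tumours), and the colonic carbonic anhydrase Car1 was at most 5.40 CPM in hom and 0.565 CPM in het tumours. Defining genes of the distal colon were thus scarce or at 0, and the tumours are called large intestinal here only as their labels say. The bile acid, Hox and Car1 genes were chosen after values were seen, and the ranges of both genotypes overlapped for each of them.

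Macrod2 itself separated the genotypes without overlap. Macrod2 stood at 0.235, 0, 0.0591, 0.0968, 0.405 and 0.153 CPM in hom 1 to hom 6, against 1.61, 1.84, 1.83, 2.21 and 3.48 CPM in het 1, het 2, het 3, het 5 and het 6. The highest hom tumour, hom 5, lay below the lowest het tumour, het 1. The wt tumours had a median of 3.79 CPM (2.93 to 4.55), so that het 6 reached into the wt range while hom 5 did not come near it. Hom tumours averaged 0.158 ± 0.145 CPM (SD, n = 6) and het tumours 2.20 ± 0.749 CPM (SD, n = 5), and the fitted difference was -3.69 on the log2 scale (SE 0.44, 95% interval -4.62 to -2.77, edgeR quasi-likelihood test with Benjamini-Hochberg adjusted p = 0.00233). An exact two-sided permutation test over all splits of the 11 tumours into 6 and 5 gave p = 0.00433, the smallest this design allows, or 0.0173 adjusted over 4 single values tested this way. Per length, Macrod2 averaged 0.0314 RPKM (reads corrected for gene length and depth) in hom tumours and 0.436 RPKM in het tumours.

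The residual Macrod2 signal in hom tumours was small but not zero in 5 of the 6. The 6 hom tumours held 5, 0, 1, 2, 8 and 3 Macrod2 reads, 19 in all, against 32, 36, 33, 43 and 61, or 205 in all, in the 5 het tumours. The 0 of hom 2 allows up to 0.189 CPM, counted as 3 reads and for counting error only. The hom mean was 7.20% of the het mean, 4.95% without hom 5 and 8.64% without hom 2. At these depths the table cannot show which exons the residual reads lie in, because it holds only 1 total per gene. With hom and het tumours alone in the fit, without the wt tumours, the difference was -3.68 and missed the threshold (edgeR adjusted p = 0.0917).

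**Figure D1:**
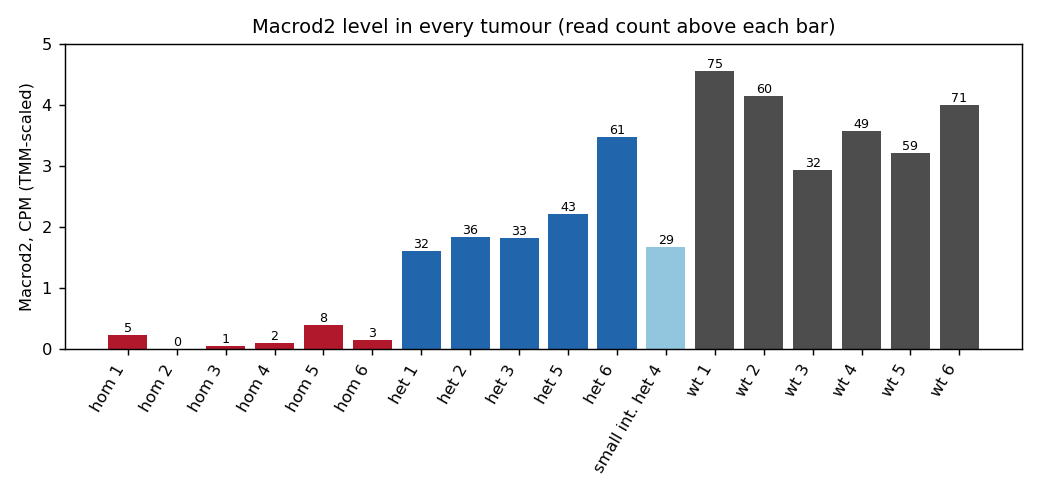
Macrod2 in each tumour as CPM (vertical axis), one bar per tumour with its read count above it, for hom, het, the small intestinal het tumour and wt. The 6 hom tumours lie between 0 and 0.405 CPM, below the 5 het tumours at 1.61 to 3.48 CPM.

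Across the genome, Macrod2 was the only gene past the threshold: 1 of 14271 tested genes (0.00701%) had an adjusted p under 0.05, and it was lower in hom tumours. The next smallest adjusted p was 0.9998. Without adjustment, 286 genes had a p under 0.05 (2.0%), 139 higher in hom (0.974%) and 147 lower (1.03%). The groups did not overlap for 27 genes (0.189%), with every hom tumour above every het tumour for 10 (0.0701%) and below for 17 (0.119%). Estimates lay above 0 for 6873 genes (48.2%) and below 0 for 7398 (51.8%), with a median of -0.01 and quartiles of -0.12 and 0.13 on the log2 scale.

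The intervals say how large a difference could have gone unseen, given a spread shared with the 6 wt tumours. The median 95% interval reached 0.41 log2 units to either side, or 0.35 for the 10618 genes with a mean log2 CPM of at least 3. For 11439 genes (80.2%) the whole interval stayed within 2-fold in either direction. A bound of that size could not be given for the remaining genes. In wt 3, 27.0% of reads fell in the ribosomal RNA gene Rn45s, against 0.118 to 0.468% in hom and het tumours. The wt spread could also differ from the others. The mean log2 level of small intestinal epithelial genes had an SD of 2.45 in wt, 1.03 in hom and 0.90 in het tumours. For interferon response genes these SDs were 0.35, 0.67 and 0.87. The small intestinal factor Gata4 stood at 171 and 179 CPM in wt 1 and wt 2. It was at 166 CPM in the small intestinal het tumour, and at most 47.3 CPM in hom and 39.1 CPM in het tumours. The lactase gene Lct had the same order, while the enzyme gene Sis in wt 1 and wt 2 lay within the hom range. Without wt 1 and wt 2 in the fit, 415 genes had an unadjusted p under 0.05, against 286. Macrod2 stayed the only gene past the adjusted threshold.

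**Figure D2:**
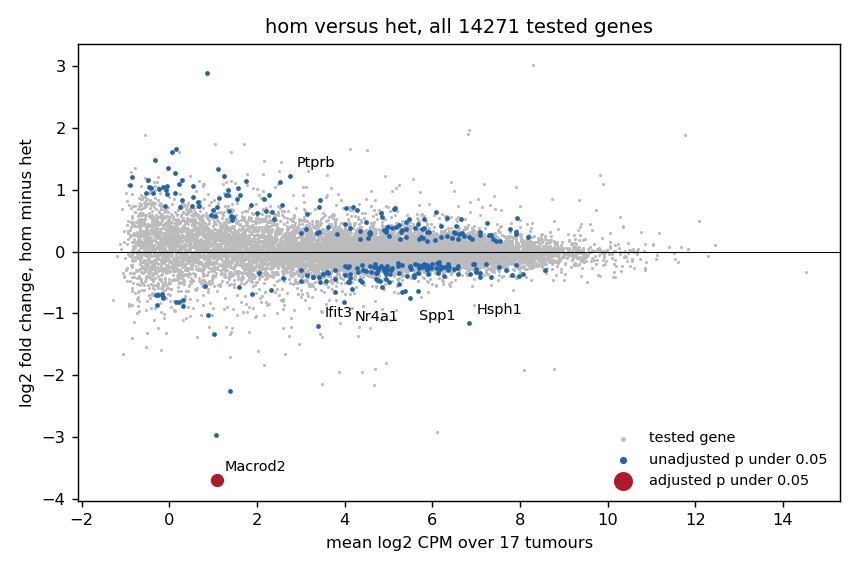
Log2 fold change of hom over het (vertical axis) against mean log2 CPM (horizontal axis) for the 14271 tested genes. Macrod2, at -3.69, is the point marked as past the adjusted threshold, and smaller coloured points mark the 286 genes with an unadjusted p under 0.05.

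No other ADP-ribose eraser or macrodomain gene passed the test. Besides Macrod2, 13 of the 14 other listed genes had enough reads to be tested (Adprhl1 did not), 6 had an estimate above 0 and 7 below, and the median was -0.02. All 13 intervals lay within 2-fold, the outermost bounds being -0.76 and 0.73. The closest relative, Macrod1, a hydrolase of the same class found in mitochondria, had an estimate of 0.11, and Parg, which trims poly-ADP-ribose chains, of -0.02. Oard1, which also frees single ADP-ribose units, had -0.08 and Adprhl2, the hydrolase for serine-linked ADP-ribose, -0.10. The mean level of these 13 genes, set against the mean over the 3 genotypes, ran from -0.12 to 0.06 log2 units in hom tumours and from -0.07 to 0.03 in het tumours, so the genotypes overlapped.

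The enzymes that write ADP-ribose showed 7 estimates above 0 and 9 below among 16 tested genes, with a median of -0.03. The 3 DNA damage writers had a median of -0.06 and the 2 tankyrases, which act on Axin and telomere proteins, one of 0.15. All 6 interferon-linked writers had estimates below 0 (median -0.13), among them Parp14 at -0.33 (95% interval -1.09 to 0.43) and Parp11 at -0.29 (-0.58 to -0.01, unadjusted p = 0.0423). All 5 of the rest lay above 0 (median 0.19), including Tiparp at 0.25. None passed the adjusted threshold. The median of all 16 changed sign to 0.03 without het 1.

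No gene near Macrod2 passed the test. The gene spans chr2:140395309-142392966 on the plus strand of mm10, and 21 other protein-coding genes lie within 2 Mb of it. Of the 15 that were tested, 10 had an estimate above 0 and 5 below, from -0.35 for Mgme1, a mitochondrial nuclease, to 0.31 for Flrt3, and 0 of 15 reached an unadjusted p under 0.05, beside 2.0% of all tested genes. Flrt3, an adhesion gene, sits inside Macrod2 on the opposite strand, and no source used here gives the strand setting of the counting. Macrod2 was at most 0.405 CPM in hom tumours, in which Flrt3 was at least 22.0 CPM. Whether Flrt3 reads had a part in the residual Macrod2 counts was not tested. Flrt3 stood at 53.3, 22.0, 54.0, 33.9, 41.6 and 36.6 CPM in hom 1 to hom 6, against 30.8, 23.5, 38.9, 38.9 and 29.8 CPM in the het tumours. The ranges overlapped, with hom 2 the lowest of all 11, and the 95% interval of the Flrt3 difference ran from -0.23 to 0.84. Kif16b, a kinesin gene 225 kb away, had an estimate of 0.18.

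DNA repair genes lay slightly below 0 as groups, without a gene past the threshold. Base excision and single-strand break repair, the pathway in which PARP enzymes act at breaks, had 5 of 22 tested members above 0 and a median of -0.11 (-0.195 without hom 2 and -0.045 without het 6), and all 22 intervals stayed within 2-fold. Tdp1, which clears stalled topoisomerase from break ends, had -0.44 (-0.88 to 0.00) and the ligase Lig3 -0.16 (-0.34 to 0.03). Homologous recombination and Fanconi anaemia genes had 6 of 30 above 0 and a median of -0.15, with Fancg at -0.28, Rad51d at -0.21, Brca2 at 0.15 and Rbbp8, an end-resection factor, at 0.12. That median was -0.24 without hom 2, -0.05 without hom 3 and -0.01 without het 6, and the repair scores of the 2 genotypes overlapped. Of p53 and its targets with the CDK inhibitors, 12 of 27 lay above 0 and the median was -0.07, which changed sign without het 1 (0.014) and without het 2 (0.049). Within that list Phlda3, a p53 target that restrains Akt, had -0.53 (-0.96 to -0.09, unadjusted p = 0.0211), the feedback gene Ccng1 -0.25, and Pmaip1, which codes for the death protein Noxa, 0.57 (-0.23 to 1.37).

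Chromosome-wide shifts, which gains or losses of whole chromosomes in most cells would give, were small in both genotypes. The median log2 level of a whole autosome, over 319 to 1029 genes each, ran from -0.09 to 0.07 in hom tumours and from -0.08 to 0.08 in het tumours, where a gain of 1 copy in every cell would give 0.585. The SD of the 19 autosome medians averaged 0.0301 ± 0.0129 in hom (SD, n = 6) and 0.0197 ± 0.0106 in het tumours (SD, n = 5), and an exact two-sided permutation test gave p = 0.203, or 0.407 adjusted over the 4 single values. The unadjusted permutation p depended on the setting. It was 0.0693 with levels relative to the wt mean and 0.108 for genes with a mean log2 CPM of at least 3. With 1 tumour left out it ran from 0.0556 (without hom 4) to 0.371 (without het 1). The hom average was the higher in each of these settings. RNA from normal cells in a resected tumour lowers such shifts, and a gain or loss shared by many tumours is partly taken up in the mean. Focal gains or losses are not seen this way.

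Genes of cell division were mostly lower in the estimates, and 1 tumour of each genotype carried much of this. Of 52 mitotic genes 1 lay above 0 and the median was -0.24; all 10 spindle checkpoint genes (median -0.20) and all 13 mitotic kinases and cyclins (median -0.28) lay below 0. Of 48 replication and S phase genes 2 lay above 0, with a median of -0.21. None was past the adjusted threshold. Aurka, the kinase that builds the spindle poles, stood at 38.7, 47.5, 17.6, 46.0, 37.8 and 27.9 CPM in hom 1 to hom 6, against 26.3, 35.2, 47.0, 52.1 and 79.9 CPM in the het tumours. Hom 3 was the lowest and het 6 the highest, and the other 9 tumours overlapped. The Aurka estimate was -0.42 (-1.0 to 0.15), the checkpoint gene Bub3 had -0.26 (-0.56 to 0.04), the helicase subunit Mcm5 -0.38 (-0.92 to 0.15), and the centromere gene Cenpi, alone above 0 in its list, 0.04.

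The summed mitosis level of each tumour, as the mean log2 CPM of the 52 genes relative to the mean of the 3 genotypes, was -0.04, 0.27, -1.02, 0.04, -0.08 and -0.50 in hom 1 to hom 6, and -0.54, -0.34, 0.10, 0.22 and 0.62 in the het tumours. Both genotypes held tumours on either side of 0. The mitotic median was -0.11 without hom 3, -0.05 without het 6 and -0.345 without het 1. The replication median was -0.13 without hom 3, -0.07 without het 6 and -0.34 without het 1.

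All single genes named here other than Macrod2 missed the adjusted threshold. Nr4a1, an immediate early nuclear receptor, had the smallest unadjusted p after Macrod2 among the genes named here. It stood at 36.0, 33.0, 25.1, 29.3, 30.5 and 37.8 CPM in hom 1 to hom 6, against 56.0, 40, 62.2, 38.5 and 53.8 CPM in the het tumours. Every hom tumour lay below every het tumour, as for 17 of the 14271 tested genes (0.119%). Hom 6 and het 5 nearly touched, and the wt median of 37.3 CPM lay with the hom tumours. The estimate was -0.65 (SE 0.15, -0.97 to -0.33, unadjusted p = 5.04e-04). Of the 29 tested immediate early genes 15 lay above 0 and 14 below, with a median of 0.01 (from -0.07 without het 6 to 0.10 without het 1). An unadjusted p under 0.05 was reached by 2 of the 29 on the higher side and 3 on the lower. Over all tested genes the shares were 0.974% and 1.03%. Among the 29, Jund had -0.22, Dusp1, a phosphatase that ends MAP kinase signalling, 0.47, and Maff 0.23.

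Zfp943, a zinc finger gene, separated the other way, at 23.0, 20.2, 24.4, 22.5, 21.3 and 21.5 CPM in hom 1 to hom 6, against 18.4, 16.3, 16.5, 19.2 and 17.2 CPM in the het tumours (0.33, unadjusted p = 0.00116). Pygo2, a cofactor of beta-catenin in Wnt transcription, had 63.8, 66.3, 67.1, 64.2, 67.0 and 61.1 CPM in hom 1 to hom 6, against 69.8, 70.1, 76.5, 76.8 and 86.0 CPM in the het tumours (-0.23, unadjusted p = 0.0105). Neither pair of ranges overlapped, as for 27 of the 14271 tested genes (0.189%), and both differences were under 1.5-fold.

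Among the rest of the 10 genes with the smallest p on each side, those higher in hom estimates included the ubiquitin-conjugating enzyme Ube2d3 at 0.32, the adaptor subunit Ap3s1 at 0.34, the palmitoyltransferase Zdhhc20 at 0.31 and Pnrc2, an RNA decay factor, at 0.27. The secreted hormone Stc1 had 0.69 and the protocadherin Pcdhb14 1.16. Those lower in hom estimates included the peroxisomal ATPase Pex6 at -0.34, the gut transcription factor Gata5 at -0.32, the membrane insertion subunit Emc10 at -0.29, Camk2n1, an inhibitor of CaM kinase, at -0.27, Vamp5 at -0.57 and the tetraspanin Tspan14 at -0.40. Gpx2-ps1, at -0.75, is a pseudogene whose reads the counting could have shared with its parent gene, so its value is uncertain. Ube2d3 stood at 248, 309, 323, 258, 247 and 246 CPM in hom 1 to hom 6, against 248, 217, 201, 207 and 215 CPM in the het tumours, where het 1 reached the lower hom values.

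Spp1, the gene for the secreted phosphoprotein osteopontin, lay lower in most hom tumours. It stood at 33.5, 40.3, 15.1, 20.2, 24.2 and 18.3 CPM in hom 1 to hom 6, against 43.9, 38.0, 29.1, 46.8 and 38.3 CPM in the het tumours. Hom 3, hom 4, hom 5 and hom 6 were below every het tumour, hom 1 and hom 2 lay among them, and the wt median was higher still at 57.0 CPM. The estimate was -0.64 (-1.12 to -0.15, unadjusted p = 0.0128).

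**Figure D3:**
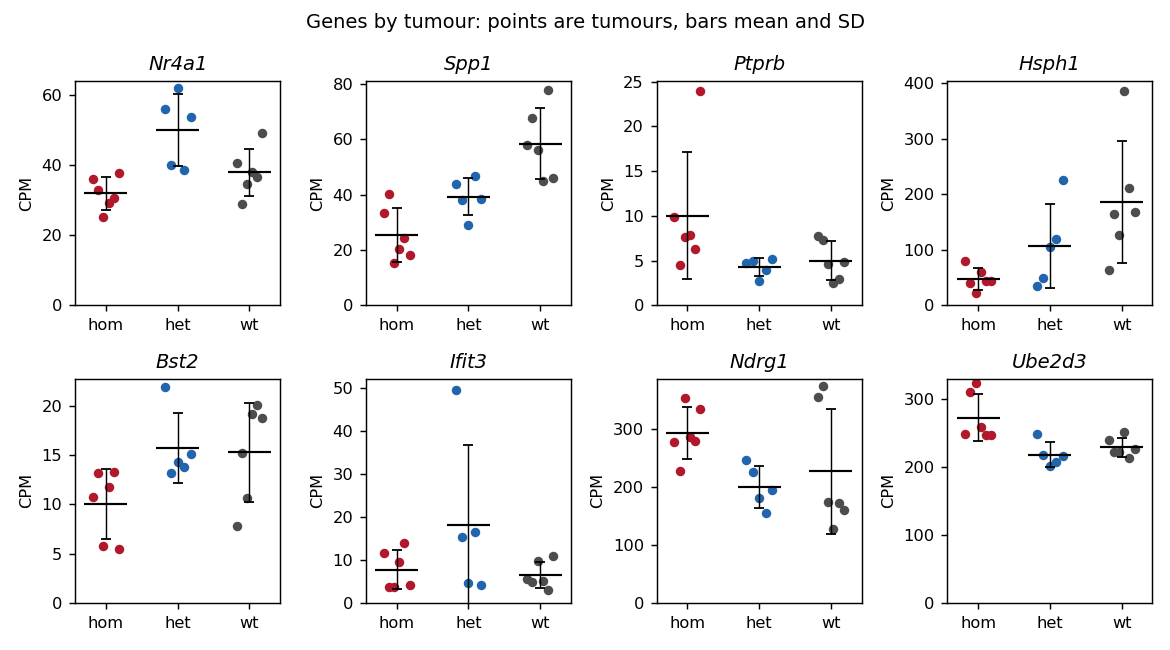
CPM (vertical axis, one scale per gene) of 8 genes in each hom, het and wt tumour, with 1 point per tumour and bars at the mean and SD. The hom and het points of Nr4a1 do not overlap, while single tumours stand apart for Ptprb (hom 6) and Ifit3 (het 1).

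Interferon response genes lay below 0 as a group, and this rested on a few tumours. Of 50 tested genes, 2 had an estimate above 0 and the median was -0.34, with the 20 antiviral effectors furthest down (19 below 0, median -0.61), the 11 sensors and transcription factors next (10 below 0, median -0.31) and the 19 type II targets and chemokines, all below 0, at -0.24. None passed the adjusted threshold, and 2 of 50 reached an unadjusted p under 0.05, beside 2.0% of all tested genes. Both of these are antiviral effectors: Bst2, which tethers budding virus to the cell, and Ifit3, which binds foreign RNA together with Ifit1.

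Short windows upstream of 5 such genes are shown because they hold the sequence that interferon-activated factors (ISGF3 and the IRF family) are known to bind; Rsad2 (an antiviral radical SAM enzyme), Isg15 (a ubiquitin-like tag) and Ifit1 were added after values were seen. Each is from RefSeq promoters of GRCm38.p6, 5′ to 3′ on the gene's strand, with every GAAA, any 2 bases, GAAA (or TTTC, any 2 bases, TTTC for the same motif on the opposite strand) in capitals; overlapping copies run together. The windows are Bst2 chr8:71537572-71537617 (minus strand, 2 overlapping copies), Ifit3 chr19:34583358-34583431 (plus strand, 2 copies), Ifit1 chr19:34640770-34640828 (plus strand, 2 copies), Isg15 chr4:156200860-156200911 (minus strand, 3 overlapping copies) and Rsad2 chr12:26456548-26456587 (minus strand, 1 copy).
Bst2: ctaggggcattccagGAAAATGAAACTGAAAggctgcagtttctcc
Ifit3: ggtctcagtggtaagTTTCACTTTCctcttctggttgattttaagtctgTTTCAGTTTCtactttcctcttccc
Ifit1: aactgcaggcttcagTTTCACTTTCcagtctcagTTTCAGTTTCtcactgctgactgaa
Isg15: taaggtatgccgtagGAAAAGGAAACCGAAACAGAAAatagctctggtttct
Rsad2: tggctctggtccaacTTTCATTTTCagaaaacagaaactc
The motif was sought on either strand in the 250 bases before and 50 after the start, and a gene counted if any of its promoters held it. Of the 34 listed interferon genes that matched the promoter table, 20 (58.8%) held the motif, against 1079 of all 27025 genes there (3.99%). The 20 had a median log2 difference of -0.33 and the 14 without it one of -0.21, while the 392 tested genes of any kind with the motif had a median of -0.03. A match describes the letters only and is not a measured binding site.

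Ifit3 stood at 11.6, 3.59, 3.66, 9.53, 14.0 and 4.13 CPM in hom 1 to hom 6, against 49.6, 15.4, 4.56, 16.4 and 4.11 CPM in the het tumours (-1.21, -2.41 to -0.01, unadjusted p = 0.0490). Isg15 stood at 8.92, 4.59, 1.77, 8.95, 14.2 and 2.96 CPM in hom tumours, against 33.6, 9.73, 7.33, 9.51 and 5.08 CPM in het tumours (-0.91, -1.96 to 0.14). Het 1 was the highest tumour for both, hom 5 was the highest hom tumour, and the rest overlapped. Bst2 stood at 10.7, 13.2, 5.73, 11.7, 13.3 and 5.51 CPM in hom tumours, against 21.9, 13.2, 14.3, 13.8 and 15.1 CPM in het tumours (-0.65, -1.22 to -0.07, unadjusted p = 0.0306). For Bst2 the other 4 het tumours stayed close together while hom 3 and hom 6 were low. Rsad2 had -1.23 and Ifit1 -0.87, each with an interval across 0.

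Summed over the 50 genes, the interferon level was 0.12, -0.53, -0.745, 0.55, 0.98 and -0.34 in hom 1 to hom 6, and 1.32, 0.935, -0.08, -0.09 and -0.83 in the het tumours. Het 6, with the lowest level of all 11, and het 1, with the highest, shared a genotype. The median of the list was -0.12 without het 1 and -0.18 without het 2, but -0.63 without hom 5 and -0.51 without het 6. Summed MHC class II genes, made by antigen-presenting cells and induced by interferon, were also highest in het 1 (1.97, against 1.21 in hom 5, the highest hom tumour). Whether immune cells in these tumours had a part in the interferon values was not tested.

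**Figure D4:**
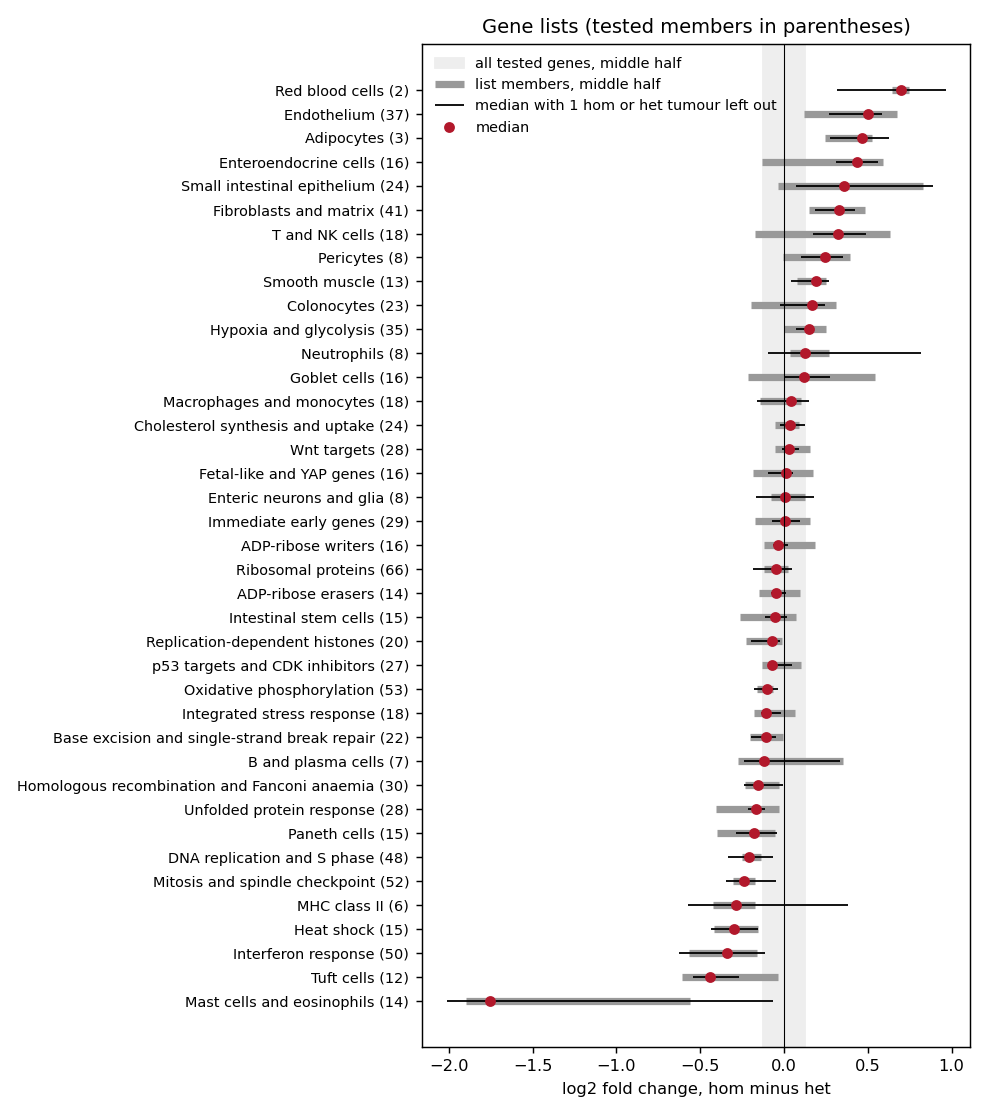
Median log2 fold change of hom over het for each of 39 gene lists (points, horizontal axis), with thick bars over the middle 50% of each list's genes, thin lines over the medians with 1 hom or het tumour left out, and the number of tested genes beside each name. The shaded band is the middle 50% of all tested genes; the erasers, Wnt targets and immediate early genes sit near 0, interferon genes at -0.34 and endothelial genes at 0.50.

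Endothelial genes lay above 0 in 35 of 37 tested cases, with a median of 0.50, and 1 tumour of the hom group stood well above the rest. In bulk tumours fewer cells of a type and less RNA per cell cannot be told apart. Ptprb, a receptor phosphatase that holds vascular junctions, stood at 9.86, 4.47, 7.68, 7.84, 6.33 and 24.0 CPM in hom 1 to hom 6, against 4.69, 4.97, 2.67, 3.96 and 5.19 CPM in the het tumours. Hom 2 was inside the het range, the other 5 hom tumours were above it, and hom 6 was far above all. The Ptprb estimate was 1.22 (0.38 to 2.07, unadjusted p = 0.00699). Vwf, the clotting factor of endothelial granules, stood at 13.5, 9.19, 12.9, 12.9, 8.25 and 29.1 CPM in hom tumours, against 10, 11.1, 5.61, 6.37 and 7.13 CPM in het tumours, again with overlap (0.83, 0.14 to 1.51, unadjusted p = 0.0209).

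In the endothelial list Tek, the angiopoietin receptor, had -0.45 and Nrp1, a co-receptor for VEGF, -0.13, the 2 members below 0. The adrenomedullin receptor gene Calcrl had 1.33 and the early vascular gene Apold1 1.0. Both are outside that list and were named for their values, so they add nothing to its count. The summed endothelial level was 0.31, -0.09, -0.16, 0.34, -0.09 and 1.0 in hom 1 to hom 6, and -0.10, 0.02, -0.47, -0.43 and -0.01 in the het tumours; 3 hom tumours lay within the het range. The median of the list was 0.27 without hom 6 and 0.585 without hom 3.

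Stromal genes had the same direction. Of 41 fibroblast and matrix genes 34 lay above 0, with a median of 0.33 (from 0.18 without hom 6 to 0.425 without hom 3). Of 8 pericyte genes 6 lay above 0 (median 0.24, from 0.10 without hom 6 to 0.35 without hom 3) and of 13 smooth muscle genes 11 (median 0.19, from 0.045 without hom 2 to 0.266 without hom 5). The matrix proteoglycan Dcn had 0.42 (0.01 to 0.82), the collagen Col6a2 0.72 (0.00 to 1.44) and the pericyte channel gene Abcc9 0.64 (0.04 to 1.25), while Fbln1 had -0.32. The summed fibroblast level ran from -0.48 in hom 3 to 0.715 in hom 6 among hom tumours, and from -0.38 in het 3 to 0.21 in het 5 among het tumours. The share of stroma in each resected piece was not measured, and its part in these values was not tested.

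Hypoxia and glycolysis genes were above 0 in 26 of 35 cases, with a median of 0.15 (from 0.07 without het 6 to 0.17 without het 3). Ndrg1, a stress gene induced in low oxygen, stood at 277, 228, 354, 287, 279.6 and 334 CPM in hom 1 to hom 6, against 247, 225, 181, 155 and 194 CPM in the het tumours (0.54, 0.01 to 1.08, unadjusted p = 0.0463). Hom 2 came within the het range and the other 5 hom tumours lay above it. Kdm3a, a histone demethylase induced by HIF, had 119, 125, 117, 122, 116 and 104 CPM in hom tumours, against 122, 106, 79.1, 90.0 and 78.5 CPM in het tumours (0.30, 0.05 to 0.54, unadjusted p = 0.0231), where het 1 and het 2 lay among the hom values.

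Protein folding genes were lower in the estimates. Of 15 cytosolic heat shock genes 2 lay above 0 (median -0.30, from -0.44 without het 2 to -0.16 without het 6). Of the 15 chaperones and folding enzymes of the endoplasmic reticulum 1 lay above 0 (median -0.40), while the sensors and factors of the unfolded protein response had a median of -0.03. Hsph1, a co-chaperone of Hsp70, stood at 79.1, 40.3, 21.3, 60.1, 43.7 and 42.9 CPM in hom 1 to hom 6, against 34.4, 48.3, 105, 119 and 226 CPM in the het tumours (-1.15, -2.15 to -0.15, unadjusted p = 0.0267). Het 3, het 5 and het 6 were above every hom tumour, and het 1 and het 2 lay among them. The mitochondrial chaperonin Hspd1 had -0.42, the disulphide isomerase Pdia6 -0.45 and Creld2 -0.53, while Herpud1, which clears misfolded proteins, had 0.23. The 18 ATF4 targets of the integrated stress response had a median of -0.11, from -0.14 without het 5 to -0.02 without het 6.

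No gene of the Wnt programme that ApcMin tumours switch on passed the test. Of 28 tested Wnt targets 15 lay above 0 and the median was 0.03 (from -0.01 without het 6 to 0.09 without het 1); 9 of 11 negative feedback genes lay above 0, with a median of 0.12. Axin2, the scaffold induced by beta-catenin, had 0.17 (-0.34 to 0.67), Znrf3, which removes Wnt receptors, 0.23 (-0.17 to 0.64) and Ephb3, a crypt position receptor, -0.40 (-0.76 to -0.05, unadjusted p = 0.0267). Apc had 0.24 (-0.16 to 0.64) and Ctnnb1, which codes for beta-catenin, 0.01 (-0.25 to 0.27). Of 15 crypt base stem cell genes 6 lay above 0 (median -0.05, from -0.12 without het 3 to 0.02 without hom 3), with the marker Lgr5 at 0.01 (-0.59 to 0.61) and the Wnt-driven factor Ascl2 at -0.39 (-0.96 to 0.19). The signs of Ctnnb1 and Lgr5 changed with single tumours left out, and of fetal-like and YAP genes 9 of 16 lay above 0 (median 0.02, from -0.095 without hom 3 to 0.06 without hom 1).

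Across genes as a whole, the distance between hom and het tumours was close to that between tumours of 1 genotype. The root mean square log2 distance averaged 0.626 ± 0.136 (SD, 30 pairs) between genotypes and 0.633 ± 0.127 (SD, 25 pairs) within them, a difference of -0.00672 (exact two-sided permutation p = 0.939, adjusted p = 0.939). The tumour nearest to a given one shared its genotype in 4 of 11 cases. The distance of each tumour to the mean of its own genotype averaged 0.471 ± 0.104 in hom (SD, n = 6) and 0.531 ± 0.101 in het tumours (SD, n = 5; exact two-sided permutation p = 0.519, adjusted p = 0.693). The largest single distance among the 11, 0.950, was between hom 6 and het 6.

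The summed levels show the same tumours at the ends of several lists. Het 6 was highest for mitosis and heat shock and lowest for colonocyte genes and macrophage genes, hom 3 was lowest for mitosis and repair, and hom 6 was highest for endothelium, fibroblasts and small intestinal epithelium. In 34 of 39 lists the mean difference between genotypes was under 1 SD of the tumours within them. The erasers, where Macrod2 enters, were the 1 list without overlap. The other 4 past 1 SD were tuft cells (-1.36 SD), heat shock (-1.34), enteroendocrine cells (1.26) and endothelium (1.15), all with overlapping tumours.

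**Figure D5:**
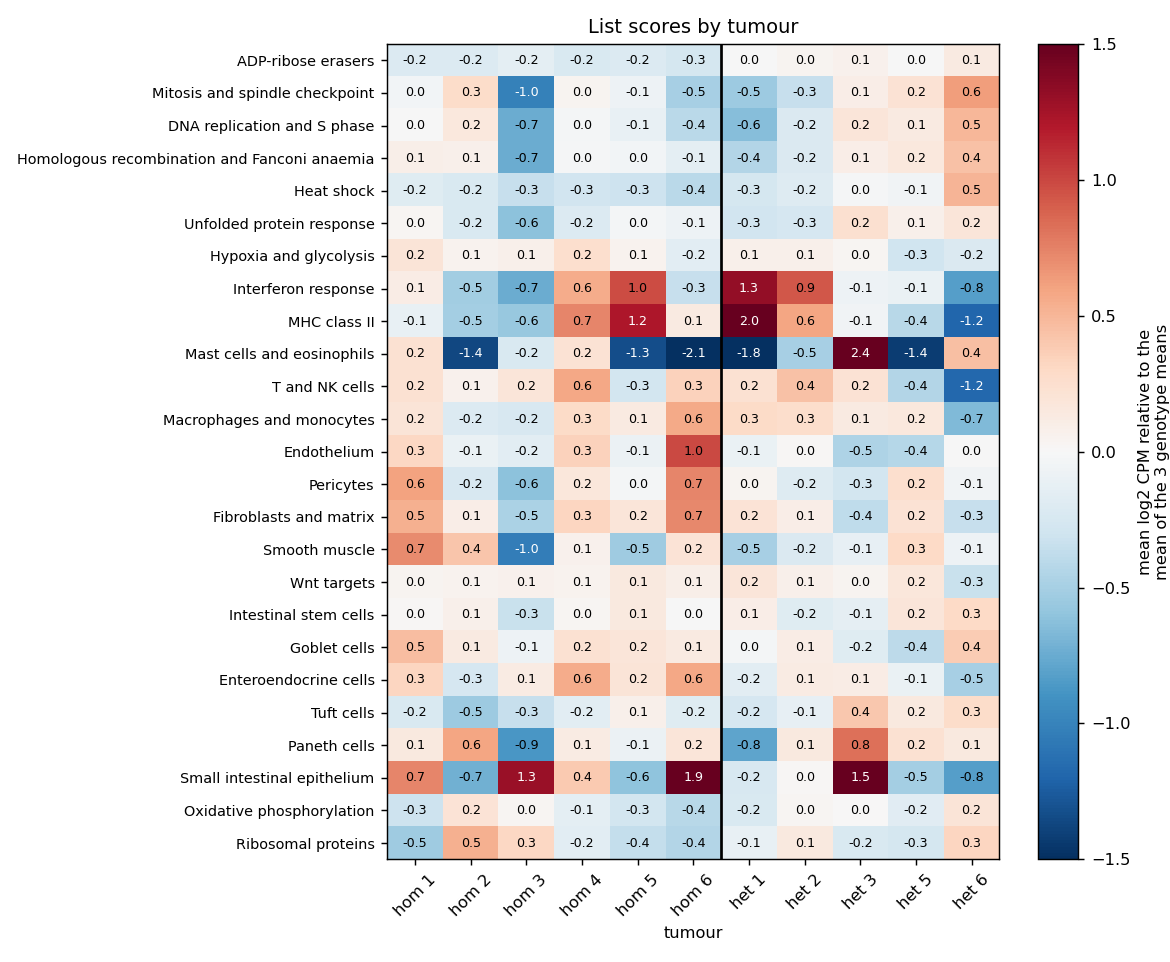
Summed level of 25 gene lists (down the page) in each of the 6 hom and 5 het tumours (across), coloured and printed as mean log2 CPM relative to the mean of the 3 genotypes. Hom and het tumours interleave for every list shown but the erasers.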

How the data were processed

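RNA-seq counts per gene from 18 mouse intestinal tumours were used. Reads were trimmed with Trimmomatic, aligned with TopHat to mm10 and counted with featureCounts of Subread 1.4.5-p1, per the submitters' processing notes. The authors deposited raw read counts per gene, gene length in bases as another column, and RPKM values per tumour. Libraries came from a TruSeq Stranded Total RNA kit, per the labels' protocols, although the molecule field names polyA RNA; the strand setting of the counting is not given in the sources used here.

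Counts of 24062 genes entered edgeR 4.0.16 (limma 3.58.1, R 4.3.3), with TMM scaling and the default expression filter, which left 14271 genes. A robust quasi-likelihood fit over the 17 tumours labelled large intestinal gave the hom minus het contrast, with p-values adjusted by Benjamini-Hochberg over the 14271 genes at a threshold of 0.05. All log2 fold changes are hom over het, and intervals are 95%. CPM values are TMM-scaled. A list score is the mean log2 CPM of the tested members (prior count 2) relative to the mean of the 3 genotype means. Single values over tumours used exact permutation. Chromosome medians used 11975 autosomal genes. Lists are described by counts and medians only. No 2 tumours agreed within counting noise. Samples were grouped by their labelled genotype and tissue.

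The members, the 39 gene lists (981 entries) and the rule for named genes were chosen with earlier results of these data known. The rule named every gene past the threshold, the 10 smallest p per direction among genes with a mean log2 CPM of at least 0 and no predicted gene name, 2 members per direction of each list, all erasers, neighbours of Macrod2 within 2 Mb, list members whose genotypes do not overlap, and Spp1, Apc, Ctnnb1, Lgr5 and Axin2. There were 29 alternatives: other scaling, filters and fits (DESeq2 1.42.0, limma-voom, limma on the authors' deposited RPKM with a pseudocount of 0.1), other tumour sets and 17 fits without 1 tumour each. The fits were tested on simulated data. Intervals on counts cover counting error only.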

Additional observations from a re-analysis of the deposited data

Results flagged for a closer look

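In 296 groups of 5 or 6 tumours examined (107 genes, 39 lists, the SD over autosomes and the distance to the own genotype, each in hom and in het tumours), 25 held a tumour set apart from the rest by a large gap. The cutoff for the gap would give about 5% for normally distributed values. Gene values were CPM, not log values, and some genes were chosen after values were seen. The chance rate for this set is thus not known. Groups that share a tumour and related genes are not independent.

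Among hom tumours, hom 6 stood apart for the vascular genes Ptprb (24.0 CPM) and Vwf (29.1 CPM), for the collagen Col6a2 (86.2 CPM) and for the brush border enzyme Sis (2528 CPM). Hom 3 stood low for Creld2 (37.9 CPM), the recombination and Fanconi score (-0.74) and the stem cell score (-0.33), and high for Axin2 (442 CPM). Hom 5 stood apart for Pex6 (31.8 CPM), and hom 1 for Pla2g4c (70.9 CPM), Hoxd13 (0.376 CPM) and Car1 (5.40 CPM).

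Among het tumours, het 1 stood high for Bst2 (21.9 CPM), Ifit3 (49.6 CPM), Isg15 (33.6 CPM), Cd74 (336 CPM) and Aqp8 (4.99 CPM). Het 3 stood high for the mast cell proteases Mcpt4 (38.1 CPM) and Cma1 (62.1 CPM), and for Hoxb13 (0.222 CPM). Het 6 stood high for Apold1 (3.25 CPM) and low for the scores of ADP-ribose writers (-0.21), Wnt targets (-0.33), colonocytes (-0.95) and macrophages (-0.67). The causes of these single values were not tested.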

How the results depend on the processing

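Macrod2 stayed lower in hom tumours under all 29 alternatives (log2 difference -4.19 to -2.02) and was the gene past 0.05 in each, except that no gene passed with hom and het tumours alone (0 genes; Macrod2 -3.68, edgeR adjusted p = 0.0917) or with a replicate block on the mouse numbers (0 genes; Macrod2 -3.71, adjusted p = 0.0785). The numbers were not taken as pairs: deviations of same-numbered hom and het tumours correlated at -0.301, 0.164, -0.092, 0.325 and -0.354, and 1 of 5 hom tumours matched its own number best. The count at an unadjusted p under 0.05 was 286, and 439 with hom and het tumours alone, 563 with the small intestinal het tumour added, 381 with the block, 349 with DESeq2, 289 with limma-voom, and 145 (without hom 6) to 606 (without het 1) with 1 tumour left out. Other values were 477 without hom 2, 156 without het 3, 167 without het 5 and 181 without het 6. The expression distance between genotypes changed sign, from -0.0249 without hom 6 to 0.0150 without het 1. Scaling moved no list median named in the text across 0, except immediate early genes (-0.00 with limma-voom), and some genes changed sign with 1 tumour left out, the cause not being tested: Macrod1 -0.043 to 0.31, Parg -0.092 to 0.049, Nudt9 -0.028 to 0.093, Enpp1 -0.237 to 0.018, Nrp1 -0.255 to 0.086, Cenpi -0.073 to 0.22, Ctnnb1 -0.023 to 0.076 and Lgr5 -0.073 to 0.14. Cd74, at -0.56, ran from -0.86 to 0.32, the highest being without het 1. With the block Parg was 0.014, Tek 0.037 and Cenpi -0.000, and with the small intestinal het tumour Ctnnb1 was -0.018.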

Other observations

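Markers of rarer cell types differed widely between single tumours, and no gene of the lists named here passed the adjusted threshold. Of 14 mast cell and eosinophil genes 1 lay above 0, with a median of -1.75 that was -0.07 without het 3 and -2.01 without het 1. Cma1, the mast cell chymase, stood at 6.24, 1.01, 5.08, 7.65, 1.11 and 0.408 CPM in hom 1 to hom 6, against 0.303, 2.92, 62.1, 1.44 and 11.9 CPM in the het tumours. Het 3 held most of the het signal and het 1 the least, so the genotypes overlapped (-2.15, -4.97 to 0.67), while the alarmin receptor Il1rl1, also made by other cells, had 0.21. All 6 MHC class II genes lay below 0 (median -0.28), but the median was 0.38 without het 1, and -0.575 without hom 5. Cd74, the invariant chain of that complex, stood at 53.5, 47.4, 37.5, 128, 149.6 and 60.3 CPM in hom tumours, against 336, 104, 62.8, 50.9 and 35.4 CPM in het tumours. T and NK cell genes had 12 of 18 above 0 (median 0.32, or -0.03 with a stricter filter on low counts, and 0.175 without hom 4 to 0.49 without het 2). Macrophage genes had 10 of 18 above 0 (median 0.04, or -0.16 without hom 6, -0.15 without het 6 and 0.15 without het 1).

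Secretory cells of the epithelium also differed between tumours. Enteroendocrine genes had 10 of 16 above 0 and a median of 0.43, with estimates from -0.66 to 1.305. Neurod1, a factor that drives their differentiation, stood at 0.798, 0.503, 0.650, 0.871, 0.962 and 1.17 CPM in hom 1 to hom 6, against 0.504, 0.461, 0.222, 0.565 and 0.228 CPM in the het tumours. Hom 2 lay just below het 1 and het 5 and the other 5 hom tumours above every het tumour (1.04, 0.12 to 1.96, unadjusted p = 0.0293), at levels of few reads. Tuft cell genes had 3 of 12 above 0 (median -0.44, or -0.29 without hom 3, -0.27 without het 3 and -0.545 without het 1), with the prostaglandin D synthase Hpgds at -0.61 and Plcg2 at -0.29. Goblet cell genes had 10 of 16 above 0 (median 0.12, from 0.01 without het 5 to 0.27 without het 6). Their estimates ran from -0.68 to 1.23, the highest being the mucus lectin Zg16 (-0.48 to 2.95). Paneth cell genes had 2 of 15 above 0 (median -0.18, from -0.28 without hom 1 to -0.04 without het 3). Colonocyte genes had 15 of 23 above 0 (median 0.17, or -0.02 without hom 6, -0.01 without het 6 and 0.24 without hom 2). Its 2 water channels went opposite ways, Aqp4 at 0.85 and Aqp8 at -1.38 (-3.65 to 0.89). Of the ion, water and guanylin genes 12 of 14 lay above 0, and of the surface and differentiation genes 3 of 9 (median -0.20). Small intestinal epithelial genes had 17 of 24 above 0 (median 0.36, from 0.07 without hom 6 to 0.89 without het 3), and their score was highest in hom 6 (1.87), het 3 (1.49) and hom 3 (1.29).

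All 53 tested oxidative phosphorylation genes had intervals within 2-fold, 2 of them above 0 (median -0.10, or -0.18 without hom 2 and -0.04 without het 6). Of 66 ribosomal protein genes 21 lay above 0 (median -0.05, from -0.19 without hom 2 to 0.05 without het 6), and all 24 cholesterol synthesis genes had intervals within 2-fold (median 0.04, from -0.02 without het 1 to 0.12 without het 3), with Lss, which closes the sterol rings, at 0.25. Histone genes had 5 of 20 above 0 and 8 of 20 intervals within 2-fold (median -0.07, or -0.20 without hom 2 and -0.02 without het 5), with Hist1h2bg at -0.41.

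Pla2g4c, a phospholipase gene chosen after values were seen, was high in few tumours of both genotypes. It stood at 70.9, 2.64, 3.07, 3.34, 3.39 and 2.76 CPM in hom 1 to hom 6, against 3.28, 1.64, 143, 325 and 74.1 CPM in the het tumours. Hom 1 and het 3, het 5 and het 6 held more than 70 CPM and the other 7 tumours less than 4 CPM, and the difference between genotypes was not past the threshold (-2.92, -5.94 to 0.10, unadjusted p = 0.0568). Its cause was not tested.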
